A study of Sinonovacula constricta with 18 samples.

Results

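The gill and the mantle of the razor clam *S. constricta* were compared through their RNA-seq libraries. The comparison covered 6 of the 18 libraries of the series, chosen by their tissue labels, namely 3 of gill and 3 of mantle from healthy adult clams. Each library was made from a pool of 3 individuals, and no treatment was applied. The other 12 libraries, of siphon, intestine, labial palp and foot muscle, were used only where stated. A read count and an FPKM (fragments scaled to transcript length and library size) were available for 32250 isoform clusters, which are groups of near-identical long transcript reads. Those whose reads over the 6 libraries came to 10 or more, 28679 in number, entered the test. The read counts summed to between 11343855 and 11796712 per gill library and to between 10905656 and 12116543 per mantle library. Neither the labels nor the study's methods say whether the pools of the 2 organs came from the same animals, so p-values measure the spread between these libraries.

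The gill and the mantle share the mantle cavity of a bivalve. The gill is a set of ciliated filaments that drive water through the cavity, take up oxygen and trap food particles. The mantle lines the shell, and its epithelium secretes the shell matrix, while its folded margin carries muscle and sensory cells. The files pair the clusters with no gene names and hold no sequences, so the labelled organs could not be checked against marker genes, and clusters are described by their levels, their length and their rank.

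Between gill and mantle the contrast held large differences, but none passed the multiple testing threshold when only these 6 libraries were used. Of the 28679 clusters tested, 0 (0%) had an adjusted p under 0.05 (quasi-likelihood test of edgeR, adjusted by Benjamini-Hochberg). The smallest adjusted p was 0.0557. At an unadjusted p under 0.05, 2470 clusters were higher in gill (8.61% of those tested) and 2156 higher in mantle (7.52%). When the spread was instead estimated over all 18 libraries, with 12 residual degrees of freedom in place of 4, the same contrast called 745 clusters higher in gill (2.6%) and 796 higher in mantle (2.78%) at an adjusted p under 0.05 (edgeR). That fit had tissue as its only term and treated the 18 libraries as independent, although same-numbered libraries of gill and the 4 other tissues deviated together, with correlations across clusters of 0.287 to 0.786, so its degrees of freedom and its calls ignore a shared source of these libraries. DESeq2 on the 6 libraries called 1735 higher in gill and 1626 higher in mantle, and limma on log2(FPKM + 0.1) called 715 and 207. The median log2 fold change over all clusters was 0.41 in this limma fit, against 0.06 in the 6-library edgeR fit. Whether the uneven split of the limma calls comes from this shift was not tested. Clusters called in the same direction by each of the 18-library fit, DESeq2, limma and edgeR with its own expression filter numbered 89, of which 46 were higher in gill and 43 higher in mantle. The number of calls thus differed widely between these fits, which differ in input, scaling and clusters tested as well as in the spread. In bulk tissue a higher level can come from more cells of a type or from more RNA per cell, which cannot be told apart.

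The log2 fold changes, gill over mantle, had a median of 0.06 and quartiles of -0.73 and 0.94. At least a 2-fold difference was seen for 6847 clusters toward gill and 5567 toward mantle, and at least a 16-fold difference (a log2 fold change of 4) for 1472 toward gill and 862 toward mantle. Large fold changes did not mean separated libraries. Of the 1472 clusters at least 16-fold higher in gill, 310 had all 3 gill libraries above all 3 mantle libraries, and of the 862 at least 16-fold higher in mantle, 291 had all 3 mantle libraries above all 3 gill libraries. Over all clusters tested, libraries did not overlap for 4012 clusters higher in gill (14%) and 3539 higher in mantle (12.3%). In 1124 of the first and 894 of the second, the nearest libraries of the 2 organs were still at least 2-fold apart.

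**Figure D1:**
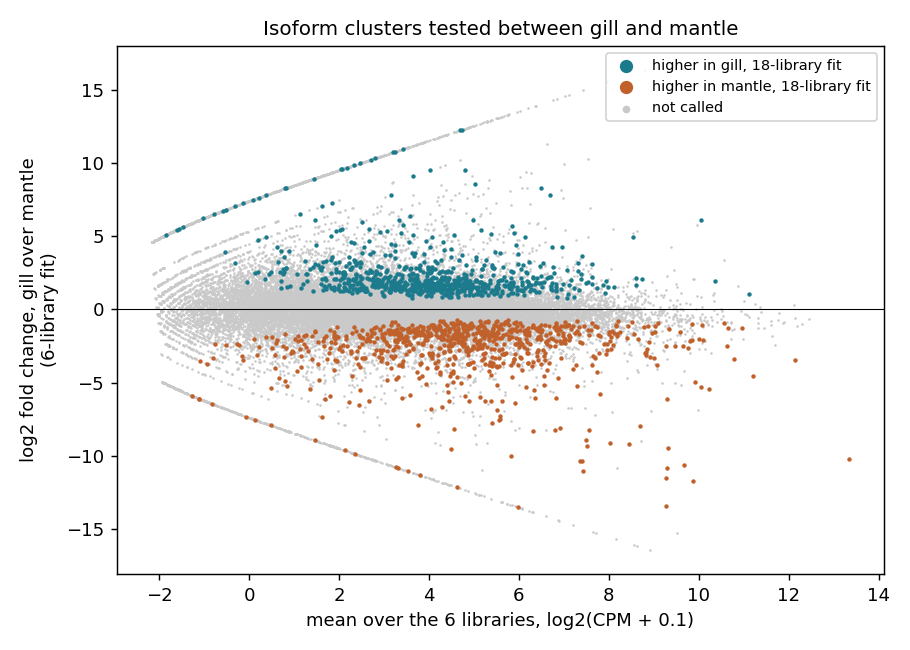
Each point is 1 of the 28679 isoform clusters, with its mean level over the 6 libraries on the x axis (log2 of CPM + 0.1) and its log2 fold change, gill over mantle, from the 6-library fit on the y axis. Colours mark the 745 clusters higher in gill and the 796 higher in mantle in the 18-library fit, and many grey clusters show fold changes as large as the coloured ones.

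Among the calls of the 18-library fit, 744 of the 745 higher in gill and 784 of the 796 higher in mantle had no overlap between the 3 gill and the 3 mantle libraries. Over all clusters tested, 14% and 12.3% did not overlap. A choice by the p of this same contrast nearly fixes the lack of overlap, and nothing is read from it. The median log2 fold change of the calls was 1.82 in the direction of gill and -2.12 in the direction of mantle, and 1483 of the 1541 differed at least 2-fold. This list was sensitive to single libraries. Without gill replicate 1, 2 or 3 the same fit called 549, 696 and 667 clusters, without mantle replicate 1 or 2 it called 971 and 908, and without mantle replicate 3 it called 1490 (edgeR, adjusted p under 0.05). Gill replicate 1 thus moved the count the most.

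The clusters printed by their ID, without its prefix, number 4. They are the 2 in each direction with the smallest p of the 6-library fit, and they were chosen after the values were seen. The last whole number of an ID was taken as the cluster length, and lengths in bases here and below are this ID length. Count and FPKM also imply a length. In gill replicate 1 the median ratio of implied to ID length was 0.860, with quartiles of 0.732 and 0.903 (clusters with at least 200 reads). The reads and FPKM of the 4 printed clusters imply lengths well below their ID length, so the ID number need not be a cluster's own length.

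Cluster c44009/1/2477, with an ID length of 2477 bases, had 222, 148 and 248 CPM (reads scaled to the normalised library size) in the gill libraries, against 0.960, 0.627 and 1.11 CPM in the mantle libraries. All gill libraries lay above all mantle libraries, and the mantle values rest on 10, 6 and 11 reads. The log2 fold change was 7.82 with a standard error of 0.489 and an adjusted p of 0.0557 in the 6-library fit (edgeR), and the adjusted p was 0.000545 in the 18-library fit. Outside these organs, on the CPM scale of all 18 libraries, it was at 509 to 655 CPM in the intestine, and it stayed under 8 CPM in the labial palp, where the highest library had 7.92, and under that in siphon and foot muscle.

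Cluster c209367/1/1600.1, with an ID length of 1600 bases, had 55.4, 69.8 and 60.9 CPM in gill, against 0.672, 1.15 and 0.907 CPM in mantle. The gill values spread little, with a mean of 62.1 ± 7.25 (SD, n = 3), and the mantle mean was 0.910 ± 0.239 (SD, n = 3). The log2 fold change was 6.08 with a standard error of 0.391 (edgeR, adjusted p = 0.0557, and 0.0016 with all 18 libraries in the fit). In the other 12 libraries its highest level was 4.60 CPM, in the labial palp, so its level in every gill library exceeded that of every other library of the series.

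In the opposite direction, c25826/1/2585.1, with an ID length of 2585 bases, had 0.148, 0.236 and 0.379 CPM in gill, against 233, 338 and 451 CPM in mantle. The gill values correspond to 2, 3 and 5 reads, and the mantle values to 2431, 3236 and 4471. Its log2 fold change was -10.33 with a standard error of 0.661 (edgeR, adjusted p = 0.0557, and 0.00763 with all 18 libraries). No library of the other 4 tissues had more than 5.07 CPM, a value reached in the labial palp.

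Cluster c88642/1/2302.2, with an ID length of 2302 bases, had 1.18, 1.34 and 1.29 CPM in gill, against 21.9, 25.6 and 28.3 CPM in mantle. Its log2 fold change was -4.30 with a standard error of 0.314 (edgeR, adjusted p = 0.0623, and 0.00011 with all 18 libraries). Unlike the previous cluster it was higher still in siphon, at 76.7 to 151 CPM, and in foot muscle, at 40.4 to 66.1 CPM, while intestine and labial palp stayed at or under 5.26 CPM. Each of the 4 clusters kept its direction when any 1 of the 6 libraries was left out, and the adjusted p of all 4 then lay between 0.149 and 0.218 (edgeR). Over all alternatives their adjusted p reached 0.351, and each was under 0.05 in 12 or 13 of 24 or 25.

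**Figure D2:**
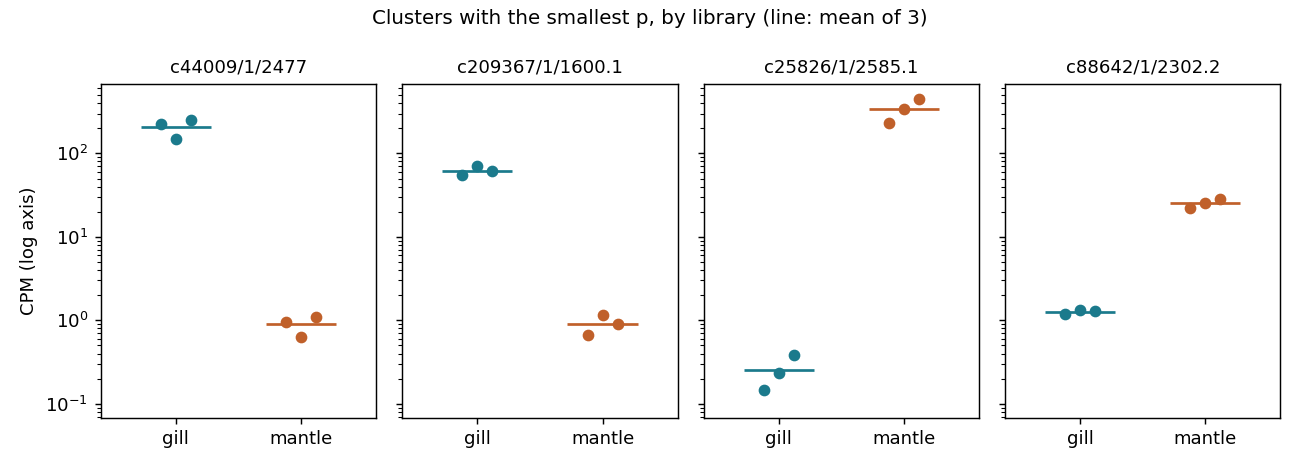
CPM of the 4 clusters printed by ID in each gill and each mantle library, on a log axis, with a line at the mean of 3 libraries. The gill points of c44009/1/2477 and c209367/1/1600.1 lie above their mantle points, and those of c25826/1/2585.1 and c88642/1/2302.2 lie below.

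On/off clusters were counted as those at 0 reads in all 3 libraries of one organ and at 10 or more reads in each of the 3 libraries of the other. There were 56 clusters on in gill and off in mantle, and 53 on in mantle and off in gill. Their direction is fixed by this choice, so they are described without a test of the group. In the 6-library fit 0 of either kind had an adjusted p under 0.05, with a smallest adjusted p of 0.0623 for each kind, although all 56 and all 53 had an unadjusted p under 0.05 (edgeR). Over all clusters that unadjusted share was 8.61% toward gill and 7.52% toward mantle, but a choice of 0 against 10 or more reads in every library nearly fixes these p-values, and nothing is read from them. The 18-library fit called 19 and 10 of them, against 2.6% and 2.78% of all clusters, and DESeq2 called 56 and 51, with the same limit. Leaving out any 1 library, which asks for 1 library fewer, gave between 92 and 165 clusters on in gill and between 90 and 163 on in mantle, so each of the 6 libraries limited these counts.

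The on/off clusters were mostly of modest level. The median over clusters of the reads in the organ where they were on was 83.5 for those on in gill and 86 for those on in mantle, and the mean FPKM there had a median of 8.35 and 6.99. Against a floor of 3 reads per library in the silent organ, the typical cluster on in gill was at least 28.2-fold higher there, and the typical cluster on in mantle at least 43.8-fold higher (medians of the lower bounds). The widest contrast toward gill was a cluster of 3586 bases with 973, 611 and 1525 reads in the gill libraries and 0 in the mantle libraries, at least 260.6-fold higher in gill. Toward mantle it was a cluster of 1695 bases at 0 reads in the gill libraries and at 9841, 4289 and 8745 reads in the mantle libraries, at least 3320-fold higher in mantle. Its mean FPKM in mantle was 463. Its unadjusted p was 0.000101 and its adjusted p 0.0623 in the 6-library fit, and the adjusted p was 0.231 in the 18-library fit (edgeR).

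The 12 libraries of the other tissues, which the on/off rule did not use, held some reads of most of these clusters. All 56 clusters on in gill had a read in at least 1 of those libraries, and 55 had 10 or more reads in at least 1. Of the 53 clusters on in mantle, 49 had a read in some other library and 45 had 10 or more. The other 4 were seen in the mantle libraries alone. Expression in a whole tissue was rarer. With 10 or more reads asked of all 3 libraries of a tissue, 34 of the 56 clusters on in gill were on in at least 1 of the 4 other tissues, as were 13 of the 53 on in mantle. The other 22 and 40 were on in none of them. By tissue, the 56 were on in siphon for 18, in labial palp for 14, in foot muscle for 14 and in intestine for 12, and the 53 were on in foot muscle for 8, in siphon for 7, in intestine for 3 and in labial palp for 2. The difference between the 2 kinds was not tested. Deviations of gill libraries followed those of same-numbered libraries of the other 4 tissues, with correlations of 0.287 to 0.786. With mantle the correlations were at most 0.0251. Expression in more tissues and a source of pools shared by gill and those tissues cannot be told apart in these counts.

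The spread between libraries of 1 organ was wide. Across the 28679 clusters, log2 CPM of gill libraries correlated with Pearson's r of 0.641 (replicates 1 and 2), 0.641 (1 and 3) and 0.729 (2 and 3), and that of mantle libraries with 0.724 (1 and 2), 0.763 (1 and 3) and 0.756 (2 and 3). The 9 gill and mantle pairs lay between 0.570 and 0.703, and by Pearson's r gill replicates 2 and 3 each correlated more with every mantle library than with gill replicate 1. By Spearman's rho this held for gill replicate 2 but not for gill replicate 3, which had 0.686 with gill replicate 1, against 0.678 and 0.674 with mantle replicates 1 and 2. These correlations are across clusters, which are not independent replicates. Among the 14111 clusters with at least 600 reads, within-gill values were between 0.377 and 0.540, within-mantle values between 0.536 and 0.605, and values between the organs 0.251 to 0.480. In this set, by Pearson's r, gill replicates 2 and 3 still correlated less with gill replicate 1, at 0.377 and 0.381, than with every mantle library. Their values with mantle were 0.446 to 0.480 and 0.407 to 0.464. By Spearman's rho, gill replicate 3 was closer to gill replicate 1, at 0.538, than to any mantle library, and gill replicate 2 was closer to gill replicate 1, at 0.531, than to mantle replicates 1 and 2. The first principal component, with 30.1% of the variance, separated the 3 gill from the 3 mantle libraries, and the second, with 21.4%, separated gill replicate 1 from gill replicates 2 and 3.

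Fitted in each organ alone, the median biological coefficient of variation (the spread between libraries beyond counting error, relative to the mean) was 0.725 in gill and 0.726 in mantle (edgeR). The common value over all clusters was 1.04 in gill and 0.936 in mantle. On log2(CPM + 0.5), the median SD of a cluster was 0.541 in gill and 0.588 in mantle, against a median absolute difference of 0.701 between the organ means. The SD exceeded 1 in 8133 clusters in gill and in 7533 in mantle. With 3 libraries an organ, a difference in spread between the organs was not tested.

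Many clusters were held by 1 library of an organ alone. Gill replicate 1 had 807 clusters with at least 30 reads that were at 0 in both other gill libraries, gill replicate 2 had 274 and gill replicate 3 had 249. In mantle the numbers were 313, 276 and 280 for replicates 1, 2 and 3. These clusters held 4.46% of the reads of gill replicate 1 and between 1.03% and 2.03% of the reads of each mantle library. The reverse pattern, at 0 in 1 library and at 30 or more reads in each of the other 2, was seen for 338, 563 and 501 clusters in gill and for 289, 427 and 245 in mantle.

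Of the 807 clusters held by gill replicate 1 alone among the gill libraries, 548 had 10 or more reads in replicate 1 of all 4 other tissues, and 29 were at 0 in those 4 libraries. In the mantle, 440 of the 807 had 10 or more reads in at least 1 library and 282 were at 0 in all 3. The deviations of gill libraries from their tissue mean followed those of the same-numbered libraries of siphon, intestine, labial palp and foot muscle, with correlations across clusters between 0.287 and 0.786 over 12 pairs. With the same-numbered mantle libraries they were between 0.0144 and 0.0251 over 3 pairs. Pools that differ between the organs and the organs themselves cannot be told apart in this comparison.

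**Figure D3:**
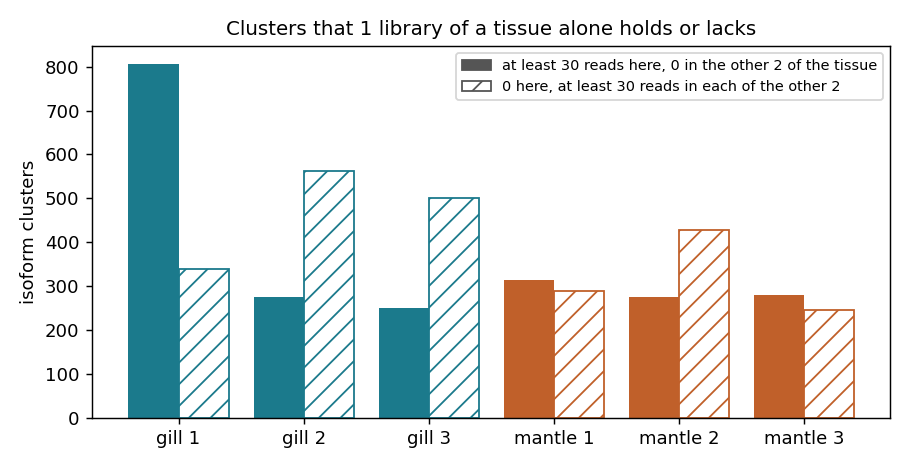
For each gill and mantle library, the filled bar counts clusters with at least 30 reads there and 0 in the other 2 libraries of that organ, and the hatched bar counts clusters at 0 there and at 30 or more reads in each of the other 2. Gill replicate 1 stands out with 807 clusters, and the filled bars of the other libraries lie between 249 and 313.

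At least 1 read was found for 26956, 25481 and 25578 clusters in the gill libraries, against 25717, 25180 and 25648 in the mantle libraries. The values overlapped, and the difference between the means, 490, was within the spread (exact permutation test, 2-sided p = 0.6, where 3 against 3 allow no value under 0.1). Without gill replicate 1 the difference was 14.5. Counting clusters with an FPKM of at least 1 gave 23137 ± 1290 in gill and 22082 ± 847 in mantle (SD, n = 3 each, exact permutation test, 2-sided p = 0.6).

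Reads were more concentrated in mantle. The 10 highest clusters of a library held 4.12%, 4.48% and 5.23% of the reads in gill, against 5.69%, 7.99% and 7.12% in mantle. Every gill library was below every mantle library, and the exact permutation test gave a 2-sided p of 0.1, which is the lowest value for groups of 3. For the 100 highest clusters the shares were 16.4%, 18.7% and 20.3% in gill and 21.6%, 26.4% and 23.8% in mantle, again without overlap (exact permutation test, 2-sided p = 0.1). The number of clusters that together held 50% of the reads was 1388, 1044 and 976 in gill, against 788, 550 and 684 in mantle. Both shares stayed lower in gill with FPKM in place of reads.

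Of the 10 clusters with the highest mean FPKM in gill and the 10 highest in mantle, 5 were shared, as were 63 of the 100 highest and 611 of the 1000 highest. Without gill replicate 1, 3 of the 10 were shared. The most abundant cluster of the gill, of 855 bases, had an FPKM of 8144 ± 784 in gill and 9586 ± 1124 in mantle (SD, n = 3 each), where it ranked second. It differed by a log2 fold change of -0.64 with a standard error of 0.372 (edgeR, adjusted p = 0.424), and in the other 4 tissues its mean FPKM lay between 7677 and 18260.

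The cluster at rank 1 in mantle, of 1106 bases, was a different one. Its FPKM was 8.47, 40.3 and 16.9 in the gill libraries, against 9328, 25316 and 23353 in the mantle libraries, and it ranked 6123 in gill. No gill library came near a mantle library. The log2 fold change was -10.19 with a standard error of 1.15 (edgeR, adjusted p = 0.0623 in the 6-library fit and 0.00941 in the 18-library fit). In the other tissues its mean FPKM was 308 in the labial palp and between 7.68 and 16.7 in siphon, intestine and foot muscle. Among the 10 highest clusters of mantle it was the only one called by the 18-library fit.

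Among the 10 highest clusters of gill, the one called by the 18-library fit stood at the second rank, of 958 bases. Its FPKM was 4851, 4340 and 5048 in gill, against 1858, 1917 and 1537 in mantle. The libraries did not overlap, and the log2 fold change was 1.03 with a standard error of 0.338 (edgeR, adjusted p = 0.243 with 6 libraries and 0.0262 with all 18). Its mean FPKM was 4804 in labial palp, 1547 in intestine, 661 in siphon and 475 in foot muscle. The third, of 1618 bases, had an FPKM of 2076, 6723 and 4787 in gill and 680, 1330 and 1085 in mantle, with an adjusted p of 0.147 in the 18-library fit (edgeR). In CPM, its gill and mantle libraries overlapped.

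Next in level among the clusters called higher in gill by the 18-library fit was one of 1613 bases, with an FPKM of 1596, 1686 and 1786 in gill, against 177, 436 and 389 in mantle (edgeR, adjusted p = 0.175 with 6 libraries and 0.0329 with all 18). Its gill libraries were close together, and its mean FPKM was also high in intestine, at 1460, and in labial palp, at 1084. Next in level among those called higher in mantle was a cluster of 898 bases, with an FPKM of 1602, 2121 and 2066 in gill, against 5272, 2853 and 2930 in mantle (edgeR, log2 fold change -1.30, adjusted p = 0.217 with 6 libraries and 0.0295 with all 18). This cluster was abundant in both organs and its libraries did not overlap. After it came a cluster of 1869 bases, which had an FPKM of 0, 3.82 and 0.38 in gill, against 2418, 5387 and 3084 in mantle (edgeR, adjusted p = 0.112 and 0.0349). It was nearly silent in every gill library, and its mean FPKM was at most 30.9 in the other 4 tissues, in the labial palp.

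Other highly ranked clusters were high in some libraries of an organ and nearly silent in others. The cluster at rank 4 in gill, of 1447 bases, had an FPKM of 21.2, 7842 and 5156 in gill and 3192, 8207 and 3844 in mantle. The one at rank 5, of 2031 bases, had 0, 4818 and 5935 in gill and 3532, 1.77 and 3747 in mantle. Their adjusted p between the organs were 0.88 and 0.975 (edgeR). Gill replicate 1 was the low library of both in gill, and mantle replicate 2 that of the second in mantle. The cluster at rank 3 in mantle, of 2644 bases, had an FPKM of 2156, 4223 and 22.4 in gill. Its low library was gill replicate 3, and it had 6395, 8233 and 4524 in mantle.

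**Figure D4:**
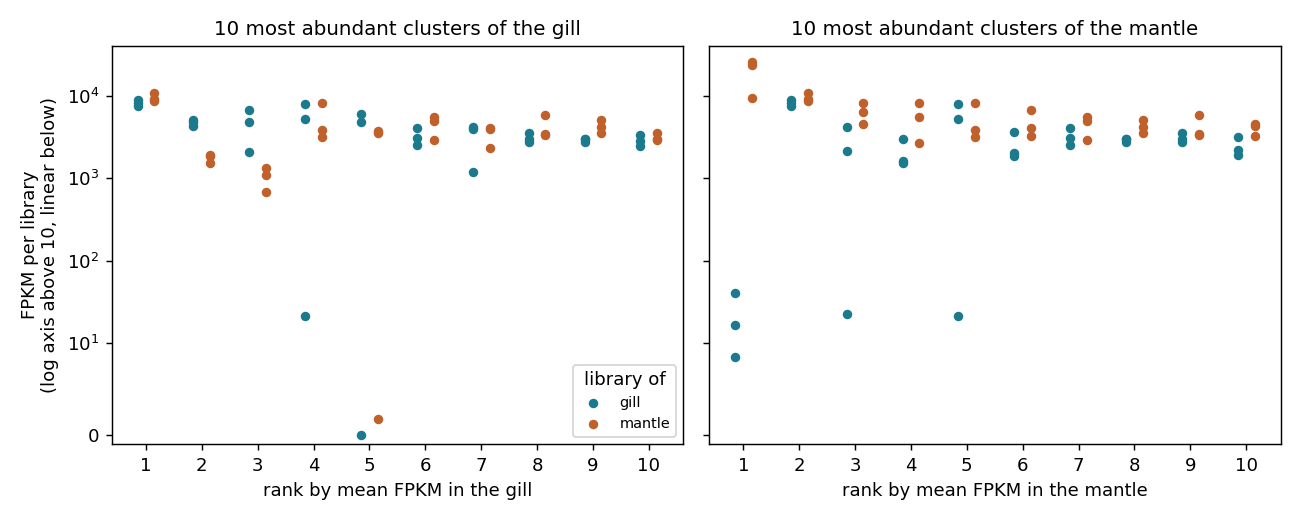
FPKM in each library of the 10 clusters with the highest mean FPKM in gill (left) and in mantle (right), with gill libraries on the left of each rank and mantle libraries on the right, on an axis that is logarithmic above 10 and linear below. Rank 1 of the mantle panel shows gill libraries between 8.47 and 40.3 and mantle libraries between 9328 and 25316. Single gill or mantle libraries drop out at ranks 4 and 5 of the gill panel. Single gill libraries also drop out at ranks 3 and 5 of the mantle panel.

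Across the 1076 clusters with a mean FPKM of at least 100 over the 6 libraries, the log2 fold change had a median of -0.50, against 0.06 over all clusters tested. The libraries did not overlap for 101 of them higher in gill and for 324 higher in mantle, where 14% and 12.3% of all clusters tested did not overlap, so that the count toward gill is below the share over all clusters and the count toward mantle above it. The 18-library fit called 35 and 88 of the 1076, where it called 2.6% and 2.78% of all clusters. With library totals in place of the TMM factors the median over all clusters was 0.44, against 0.06 with them, so the direction of small differences depends on the scaling, as does the split of the unadjusted calls, which became 3965 higher in gill and 1235 higher in mantle.

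With TMM scaling, the levels of the called clusters in the other 4 tissues divided those tissues into 2 pairs. Of the 745 clusters called higher in gill by the 18-library fit, 81.7% had a mean level in the labial palp nearer to gill than to mantle, and 70.6% in the intestine, while 27.7% did in foot muscle and 24.8% in siphon. Over all 28679 clusters these shares were 67.0%, 61.3%, 49.8% and 49.9%. Of the 796 called higher in mantle, 78.4% were nearer to the gill level in the labial palp, 71.7% in the intestine, 36.1% in foot muscle and 33.0% in siphon. With library totals these became 67.3%, 67.3%, 65.3% and 57.4%, so the 2 pairs were not seen for this set. Over all clusters, library totals gave 68.4%, 61.3%, 42.0% and 43.6%. Means of log2(CPM + 0.1) were compared, and clusters are not independent of one another. The fit that chose these clusters took its spread and scaling from all 18 libraries, and the direction from gill and mantle. Deviations of gill libraries followed those of same-numbered libraries of the 4 tissues (correlations of 0.287 to 0.786), but not those of mantle libraries (at most 0.0251). Likeness of tissue and a source of pools shared with gill therefore cannot be told apart in these shares.

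Gill was the highest of all 6 tissues for 278 of the 745 clusters called higher in gill, and mantle was the lowest for 248. Mantle was the highest for 443 of the 796 called higher in mantle, and gill the lowest for 359. The choice of clusters by the direction between gill and mantle favours these ranks, and the share over all clusters was not counted, so nothing is read from them. With library totals the counts were 316 and 182 for the 745, and 483 and 233 for the 796. For 88 of the 745 all 4 other tissues were nearer to gill, and for 44 all 4 were nearer to mantle. Among the 796, all 4 other tissues were nearer to gill for 132 and nearer to mantle for 53. With library totals, all 4 were nearer to gill for 35 of the 745 and nearer to mantle for 47, so their order depends on the scaling. Among the 796 the counts became 222 and 36. The limit from a source of pools shared with gill holds for these counts too.

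**Figure D5:**
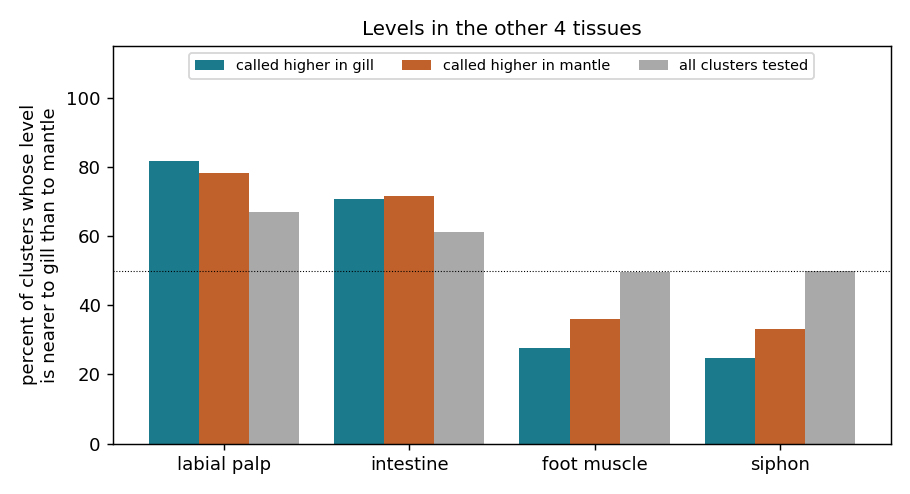
Share of clusters whose mean log2(CPM + 0.1) in each other tissue was nearer to gill than to mantle, for the 745 clusters called higher in gill, the 796 called higher in mantle and all 28679 tested, with a dotted line at 50%. Labial palp and intestine lie above the line for all sets, and foot muscle and siphon lie below it for the called clusters with TMM scaling, while with library totals the clusters higher in mantle stood at 65.3% and 57.4%. Likeness of tissue and a source of pools shared by gill and these tissues cannot be told apart.

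The length in the cluster ID differed little, and it need not be a cluster's own length. The median ID length was 2275 bases for the 745 clusters called higher in gill and 2070.5 bases for the 796 called higher in mantle, against 2168 bases for all clusters tested, with quartiles of 1674 and 3027. Some clusters share the whole ID up to a decimal suffix, and reads of such clusters could have been divided among them. This holds for 5618 of the clusters tested, which fall into 2626 such sets, and 236 of the 1541 calls of the 18-library fit are in them. Over all clusters tested, that fit called 2.6% higher in gill and 2.78% higher in mantle. In 0 of these sets was 1 member called higher in gill and another higher in mantle. Sets with several called members were not counted, so nothing is read from this 0. With the counts of each such set summed, the 6-library fit called 3 clusters higher in gill and 1 higher in mantle, at a smallest adjusted p of 0.0487 (edgeR).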

How the data were processed

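Conditions and replicate numbers came from the sample labels. For each isoform cluster and library the authors deposited an FPKM, scaled for length and library total, and an estimated count, and the submitters' processing notes name RSEM, Bowtie2 and DESeq 1.10.1 without their roles. Filters and assembly: not given in the sources used here. A Pacific Biosciences instrument is named in the series text, whereas the library kit in the labels is one for Illumina sequencing. Counts were rounded to whole numbers, and clusters with at least 10 reads over the 6 libraries were tested by the quasi-likelihood test of edgeR 4.0.16 in R 4.3.3 (TMM factors, tissue as the only term, Benjamini-Hochberg adjustment, threshold 0.05, 2-sided). Standard errors are those implied by the F statistic. CPM used the TMM library sizes. The code was tested on simulated data.

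The rule for clusters printed by ID (at most 2 in each direction, called, at least 2-fold, not overlapping, highest in FPKM) found none, since 0 were called, and the smallest p took its place. Members and rules were chosen with earlier results of these data known. DESeq2 1.42.0, limma 3.58.1 with trend, other scalings, filters and pseudocounts, the replicate block, all 18 libraries and leaving out each library were alternatives. Summing clusters of 1 ID stem and leaving out libraries from the 18-library fit were added after seeing the data. The replicate numbers did not pair gill with mantle, as the deviations of same-numbered libraries correlated by at most 0.0251. Single values per library were compared with SciPy 1.17.1. Intervals of counting error are not given, since reads without molecular identifiers are not independent molecules.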

Additional observations from a re-analysis of the deposited data

How the results depend on the processing

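No cluster was called with other scalings (RLE, upper quartile, library totals), no filter, at least 60 reads or any 1 library left out (edgeR, counts of 0 throughout). With the replicate block the count was also 0, with 3815 clusters at an unadjusted p under 0.05 and a smallest adjusted p of 0.351, and the samples share only a number. The count became 117 with edgeR's expression filter (61 higher in gill, 56 higher in mantle), which tests 23993 clusters, 3361 with DESeq2 (1735 and 1626), 922 with limma on log2(FPKM + 0.1) (715 and 207), 1068 with a pseudocount of 1 (841 and 227), 899 with 0.01 (698 and 201) and 1541 with all 18 libraries in the fit (745 and 796). Why the tools differ was not tested. Chosen after seeing the data, the 18-library fit with each gill or mantle library left out called 549 clusters without gill replicate 1 (332 higher in gill, 217 higher in mantle), 696 without gill replicate 2 (370 and 326), 667 without gill replicate 3 (364 and 303), 971 without mantle replicate 1 (476 and 495), 908 without mantle replicate 2 (420 and 488) and 1490 without mantle replicate 3 (678 and 812). Summing clusters of 1 ID stem gave 4 (3 and 1).

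On/off clusters numbered 34 on in gill and 32 on in mantle with at least 30 reads asked for, and between 92 and 165 and between 90 and 163 with 1 library left out, which relaxes the condition. Shared clusters among the 10 highest numbered 3 to 6 with 1 library left out. The median coefficient of variation was 0.643 in gill and 0.647 in mantle for clusters with at least 600 reads, and 0.759 to 0.811 in gill and 0.743 to 0.809 in mantle with 1 library left out. With library totals, clusters higher in gill were nearer to gill in 14.8% in siphon, 85.8% in labial palp and 12.5% in foot muscle, and clusters higher in mantle in 57.4% in siphon, 67.3% in intestine, 67.3% in labial palp and 65.3% in foot muscle. All 4 printed clusters kept their direction under every alternative that held them.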
